A study of Oryctolagus cuniculus with 16 samples.

Results

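The comparison described here sets sham-operated rabbit vagina against unoperated rabbit vagina. It covers 9 of the 16 libraries of the study, chosen by their treatment label, with 3 sham libraries (sham 11, 12 and 14) and 6 control libraries (control 2, 9, 16, 24, 25 and 29), each from an animal with its own number. All animals were female New Zealand White rabbits of 17 to 19 weeks, called juvenile by the submitters. The control rabbits were native and the sham rabbits had surgery without a graft. The other 7 libraries came from rabbits that received a graft without cells (acellular, 3) or a graft carrying the animal's own tissue particles (PLATE, 4), sampled 10 mm from the graft, and they enter here only through the shared estimate of spread. The time between surgery and sampling, the time of day, the sampling site in the sham and control animals and the content of the sham operation are not given in the sources used here. The comparison asks what surgery alone leaves in the transcriptome of the vaginal wall, without any implant.

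A surgical wound of a mucosal wall normally passes through clotting, an inflammatory phase led by neutrophils and then macrophages, a proliferative phase in which fibroblasts lay down provisional and fibrillar matrix, and a long remodelling phase. Neutrophils are short-lived granulocytes that enter tissue from blood and leave or die as a wound resolves. The vaginal wall itself consists of a mucosal epithelium, a collagen-rich lamina propria, smooth muscle and an outer adventitia with vessels and nerves, and RNA of a whole piece of wall mixes them all.

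The tissue label was checked against defining markers first. ESR1, the oestrogen receptor, stood at 417, 396 and 436 CPM (counts per 1000000 named-gene counts, scaled by effective library size) in sham 11, 12 and 14, and at 161, 301 and 371 CPM as the lowest, median and highest control. HOXA13, a positional transcription factor of the lower reproductive tract, was at 36.0, 34.5 and 28.5 CPM in sham against 13.5, 25.1 and 41.9 CPM in control. The smooth muscle myosin gene MYH11 was at 27442, 17442 and 22551 CPM in sham against 4924, 22756 and 54528 CPM in control. Each of these markers was present in all 9 libraries. EPCAM, the epithelial adhesion molecule, was at 70.6, 110.7 and 117 CPM in sham and from 52.8 to 252 CPM in 5 controls, but at 1.71 CPM in control 2.

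Libraries held 26659187 to 30695000 counts in sham and 23190264 to 30190710 counts in control, and 11438 to 11614 and 10797 to 11629 named genes had a count. Mitochondrial transcripts took 9.53 to 12.6% of named counts in sham and 8.92 to 26.0% in control, the highest being control 2. In control 2 the 50 most abundant genes also took 54.3% of named counts, against 28.2 to 38.1% in the other controls and 30.6 to 35.2% in sham. The sham libraries were alike and the controls were not: the median standard deviation of a gene's log2 CPM was 0.19 over the 3 sham libraries and 0.44 over the 6 controls. Control 2, poor in epithelial transcripts, and control 9, rich in epithelial and antigen-presentation transcripts, lay at opposite ends of several gene groups below, and values without them are given where they alter a result.

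Of the 10942 genes tested, 0 passed an adjusted p of 0.05 between sham and control in the edgeR quasi-likelihood test (0% called), and the smallest adjusted p was 0.964. At an unadjusted p under 0.05 there were 130 genes higher in sham (1.19% of those tested) and 191 lower (1.75%), together 321 where 547 would be expected if no gene differed. DESeq2 and both forms of limma voom on all 16 libraries also called 0 genes. Their smallest adjusted p was 0.102 in DESeq2, 0.11 in voom with sample weights and 0.437 in voom with group weights. The number at an unadjusted p under 0.05 depended on the method. DESeq2 had 159 higher and 309 lower, voom with sample weights 582 and 543, and voom with group weights 533 and 430. The 3 sham values lay above all 6 control values for 208 genes (1.90%) and below all 6 for 196 genes (1.79%). The 95% interval of the log2 fold change lay within a 2-fold change in either direction for 6338 genes, 57.9% of those tested, and was wider than that for the other 4604. In counts simulated for this comparison over 10872 genes, the edgeR test found 77% of the genes simulated with a 4-fold difference and 25% of those with a 2-fold difference. The genes given a difference lay above a low floor of mean CPM, so the shares do not cover genes below it. The simulated counts had the same spread per gene in every group. The real controls varied more than sham, so these shares may not hold for the real counts. Values below are therefore given as levels with their spread. Intervals are for single genes and are not adjusted for the number of genes.

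A DESeq2 test of the 9 sham and control libraries alone, which leaves the graft libraries out of the estimate of spread and was chosen after seeing the data, called 28 of 10699 genes (0.262%), 22 lower in sham (0.206%) and 6 higher (0.0561%). The edgeR test of the same 9 libraries called 0, with a smallest adjusted p of 0.418. Of the 28 DESeq2 calls, 8 were also called in each of the 9 fits that left out 1 library, and all 8 were lower in sham: CSF3R, TCN1, IL1B, IDO1, S100A9, CXCR1, PGLYRP1 and PLK3. The number called ran from 9 without sham 14 and 13 without sham 11 to 59 without control 2. CSF3R, CXCR1, S100A9, TCN1 and PGLYRP1 are genes of granulocytes, and that group is described first.

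Transcripts of neutrophils were lower in sham than in control. CSF3R, the receptor for granulocyte colony-stimulating factor, was at 0.652, 1.24 and 0.371 CPM in sham 11, 12 and 14, against 6.38, 22.7 and 38.1 CPM as the lowest, median and highest control. Every sham library thus lay below every control, with a log2 fold change of -4.76 ± 1.59 (standard error) and a 95% interval from -8.16 to -1.37. The DESeq2 test of the 9 libraries, chosen after seeing the data, gave CSF3R the smallest adjusted p of all genes, 9.51e-12. In edgeR on all 16 libraries the unadjusted p of CSF3R was 0.00916, and no gene had an adjusted p under 0.964. In whole-tissue RNA, fewer cells of a type and less RNA per cell cannot be told apart. CXCR1, a receptor for the chemokine CXCL8, was at 3.03, 1.72 and 1.03 CPM in sham against 3.94, 22.0 and 38.9 CPM in control (log2 fold change -3.45 ± 1.30). Its groups did not overlap either.

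Granule and cytosolic proteins of granulocytes showed the same order of levels. S100A8 and S100A9 encode the calprotectin subunits, which fill the neutrophil cytosol. S100A9 stood at 5.22, 9.24 and 1.40 CPM in sham against 29.5, 66.1 and 218 CPM in control (log2 fold change -4.24 ± 1.45). S100A8 stood at 3.40, 19.9 and 1.69 CPM against 39.6, 71.2 and 258 CPM (-3.51 ± 1.39). In both genes sham 12 was the highest sham library and still lay below the lowest control. TCN1, which encodes haptocorrin, a vitamin B12 binder stored in secondary granules, had 0, 4 and 1 counts in sham 11, 12 and 14, and 31 to 169 counts in each control. PGLYRP1, a bactericidal granule protein that recognises peptidoglycan, was at 0.466, 0.766 and 0.0823 CPM in sham against 2.23, 4.18 and 6.48 CPM in control (log2 fold change -3.04 ± 1.20). DESeq2 on the 9 libraries, the fit chosen after seeing the data, gave TCN1 and PGLYRP1 adjusted p values of 1.61e-09 and 1.29e-05. In edgeR both missed the threshold. Neither was in the list of neutrophil genes, and PGLYRP1, like IDO1, PLK3, RASD1, CCL2 and THBS3 below, was named after its values were seen.

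**Figure D1:**
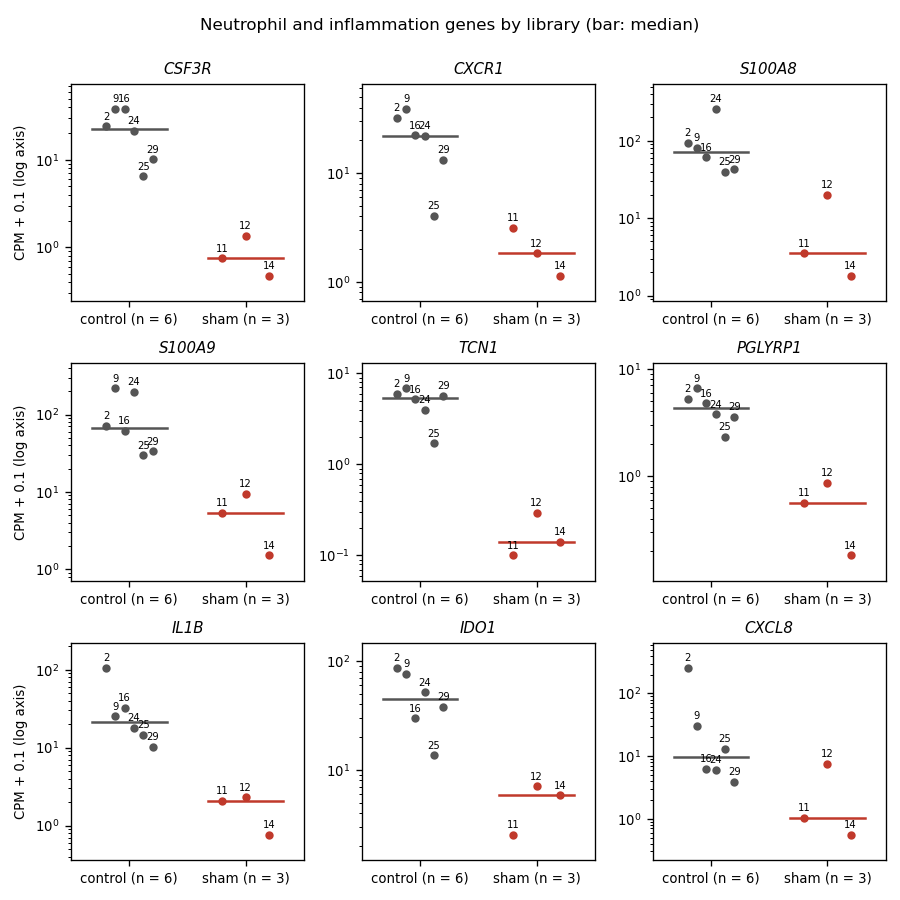
Levels of 9 neutrophil and inflammation genes in the 6 control and 3 sham libraries, as CPM plus 0.1 on a log axis, each point 1 library with its animal number and each bar the group median. The 3 sham points lie below the 6 control points in every panel except that of CXCL8, where sham 12, at 7.37 CPM, lies within the control range.

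Single inflammatory mediators differed in how far they separated the groups. IL1B, the cytokine interleukin 1 beta, was at 1.96, 2.202 and 0.659 CPM in sham against 10.1, 21.5 and 106.3 CPM in control (log2 fold change -4.34 ± 1.78, adjusted p = 1.77e-06 by DESeq2 on the 9 libraries). IDO1, the interferon-inducible enzyme that degrades tryptophan, was at 2.42, 6.94 and 5.72 CPM against 13.5, 44.7 and 87.0 CPM (-3.27 ± 1.25). For both, the groups did not overlap, and neither passed edgeR. CXCL8, the main neutrophil chemokine, did overlap: sham stood at 0.931, 7.37 and 0.453 CPM and control at 3.81, 9.48 and 258 CPM, with sham 12 inside the control range. PTGS2, the inducible cyclooxygenase, overlapped as well, at 16.2, 6.03 and 5.39 CPM in sham against 11.0, 28.4 and 136 CPM in control. CCL2, the chemokine for monocytes, was at 1.49, 3.45 and 1.56 CPM in sham against 1.56, 12.0 and 42.9 CPM in control, where only control 9 lay within the sham range.

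The list of neutrophil and interleukin 1 genes had 27 entries, of which 22 were in the table and 19 passed the filter on low counts. Of these 19, 17 were lower in sham and 2 higher, where 57.9% of all genes tested were lower. Sham lay below every control for 6 of them, 31.6% beside 1.79% of all genes, and 0 of the 19 passed edgeR. The median log2 fold change was -2.22, beside -0.06 over all genes tested. It was -1.84 without control 2 and control 9, and it ran from -3.17 without sham 12 to -1.81 without sham 14. Not every gene used by granulocytes was low. CYBB, the membrane subunit of the phagocyte NADPH oxidase that macrophages also make, stood at 7.49 to 24.8 CPM in sham, within the control range. MMP9, a gelatinase of neutrophil granules, was at 0.373 and 0.124 CPM in sham 11 and sham 14 but at 67.7 CPM in sham 12, above the highest control at 10.3 CPM. Among the 3 members below the filter, MMP8 had no count in any of the 9 libraries, MPO had 1 count in all and CSF3 had 1 count in sham and 19 in control, 16 of them in control 9.

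Averaged over these 19 genes, log2 CPM in the sham libraries came to 1.44, 2.54 and 0.59, below the controls at 2.89 to 4.42. The acellular libraries, at 1.53, 1.95 and 3.93, and the PLATE libraries, at 2.51 to 7.90, spanned both. Some graft libraries thus lay as low as sham, and no difference between sham and grafts was tested. Control 9 held the highest control mean and control 25 the lowest.

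Other leukocyte groups gave smaller differences, and sham and control overlapped for most of their members. Of 23 measured macrophage and monocyte genes, 20 were lower in sham (beside 57.9% of all genes) at a median log2 fold change of -0.72, or -0.40 without control 2 and control 9, and 1 lay below every control (4.35%, beside 1.79% of all genes). CD68, a lysosomal glycoprotein of macrophages, stood at 29.5, 36.9 and 23.0 CPM in sham and at 16.7, 39.9 and 119 CPM in control. CD163, the haemoglobin scavenger receptor, was at 19.2, 11.4 and 13.6 CPM against 9.80, 23.3 and 251 CPM, the highest being control 24. The non-overlapping member was ARG1, an arginase, at 0.373, 0.814 and 1.11 CPM against 1.37, 3.81 and 18.1 CPM.

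The MHC class II list, whose products present antigen to helper T cells, had all 9 measured genes lower in sham. Of all genes tested, 57.9% were lower. The median of the list was -0.85, but -0.045 without control 9 and -0.22 without control 2 and control 9. HLA-DRA, the class II alpha chain, was at 290.5, 364 and 309 CPM in sham and at 221, 368 and 1800 CPM in control, so that control 9 lay far above the rest and control 16 and 29 also lay above sham. B and plasma cell genes had a median of -0.75, of 0.14 without control 9 and of -0.05 without control 2 and control 9. T and NK cell genes had a median of -0.21, of 0.28 without control 9 and of 0.03 without control 2 and control 9. Among them IFNG, the type II interferon, was at 0.838, 0.239 and 2.96 CPM in sham against 0, 0.241 and 0.440 CPM in control (log2 fold change 2.18 ± 0.779), resting on 18, 5 and 72 counts in sham 11, 12 and 14. For these lymphocyte and class II lists, no member's groups failed to overlap.

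Immediate early genes, which are transcribed within minutes of growth factor, mechanical or handling stimuli and encode transcription factors and feedback phosphatases, formed the other large low group in sham. FOS, a subunit of the AP-1 transcription factor, was at 58.9, 71.2 and 68.0 CPM in sham against 26.5, 827 and 1882 CPM in control (log2 fold change -3.70 ± 1.37, 95% interval -6.62 to -0.78). FOSB, its relative, was at 6.43, 3.50 and 6.22 CPM against 2.00 to 494 CPM (-4.89 ± 1.74). EGR1, a zinc finger factor, was at 45.6, 135 and 39.9 CPM against 31.0, 449 and 1538 CPM (-2.91 ± 1.27). For each of the 3 genes the control group was split, with control 2, 16, 25 and 29 above every sham library and control 9 and 24 at sham level or close to it.

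Sham lay below every control for 3 members of the list, EGR2, EGR3 and KLF10. EGR3 was at 0.373, 0.0958 and 0.535 CPM in sham against 0.640, 2.04 and 13.1 CPM in control, and EGR2 at 0.978, 0.958 and 0.823 CPM against 1.60, 4.47 and 21.5 CPM. KLF10, a repressor induced by TGF-beta, was at 22.1, 12.3 and 15.3 CPM in sham against 23.3, 27.7 and 40.9 CPM in control. DUSP6, a phosphatase that switches off ERK and is induced by it, is no member of the list but was among the leading genes. It stood at 15.1, 15.3 and 18.9 CPM in sham against 28.2, 49.4 and 108.4 CPM in control (log2 fold change -1.91 ± 0.606). PLK3, a stress-inducible kinase, was at 1.68, 1.29 and 0.823 CPM against 3.06, 5.04 and 6.58 CPM (-1.93 ± 0.681). RASD1, a Ras-like protein induced by dexamethasone, was at 3.21, 3.21 and 2.14 CPM against 4.48, 17.7 and 38.8 CPM (-2.58 ± 0.846). In these 6 genes every control lay above every sham library.

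**Figure D2:**
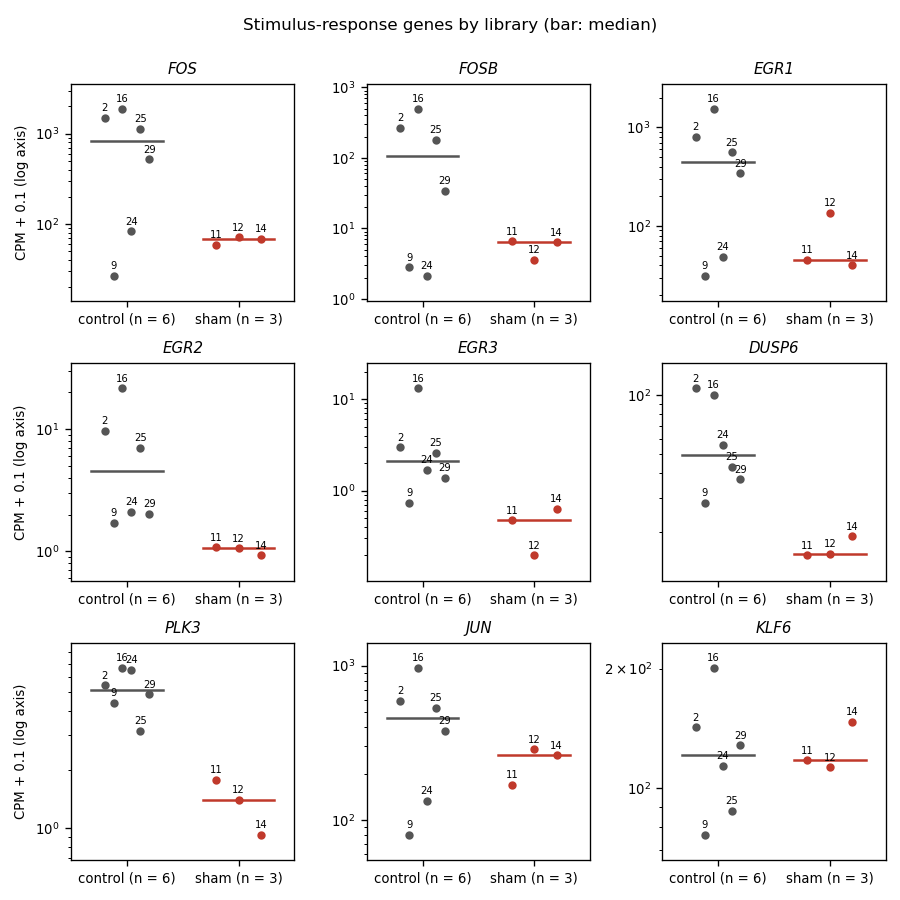
Levels of 9 stimulus-response genes in the 6 control and 3 sham libraries, as CPM plus 0.1 on a log axis, each point 1 library with its animal number and each bar the group median. The sham points for FOS lie between 58.9 and 71.2 CPM while the controls spread from 26.5 to 1882 CPM, and KLF6 and JUN overlap widely.

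Of 24 measured immediate early genes, 22 were lower in sham, at a median log2 fold change of -1.72. The 3 that lay below every control make up 12.5%, beside 1.79% of all genes, and 0 passed edgeR. The median was -1.11 without control 16 and -1.88 without control 2 and control 9. The group did not move as one. KLF6, a factor of the same class, stood at 118, 112.8 and 147 CPM in sham against 76.4, 121 and 201 CPM in control, with a 95% interval of the log2 fold change from -0.73 to 0.75. JUN, the partner of FOS, was at 169.9, 286 and 262 CPM against 80.2, 455 and 970.2 CPM, a difference of -0.90 ± 0.782 that its interval, -2.57 to 0.77, did not separate from 0. Heat shock genes, another class of rapid response, had 13 of 14 lower in sham (92.9%, beside 57.9% of all genes) at a median of -0.22. Of these 14, 0 lay outside the control range in all 3 sham libraries.

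Metabolic and hormone-responsive genes held several of the genes with the smallest p. PDK4, the kinase that closes pyruvate dehydrogenase in fasting and under glucocorticoid, was at 9.73, 10.2 and 17.4 CPM in sham against 20.8, 66.0 and 131 CPM in control (log2 fold change -2.52 ± 0.702). SGK1, a kinase induced by glucocorticoid and by serum, was at 46.4, 25.8 and 27.7 CPM against 59.8, 65.5 and 109.1 CPM (-1.12 ± 0.290, 95% interval -1.74 to -0.51). Neither gene's groups overlapped. FKBP5, a chaperone of steroid receptors and a standard glucocorticoid target, was at 5.31, 6.08 and 1.77 CPM against 1.80, 11.1 and 20.8 CPM, overlapping through control 2. TSC22D3, which encodes the glucocorticoid-induced leucine zipper, was not lower: it stood at 111.2, 100.6 and 151 CPM in sham against 93.0, 98.4 and 124 CPM (0.20 ± 0.204). NR3C1, the glucocorticoid receptor, was at 75.0, 89.7 and 106.7 CPM against 30.7, 55.4 and 91.7 CPM (0.58 ± 0.287). Over the 12 measured genes of the glucocorticoid list, 8 were lower (66.7%, beside 57.9% of all genes) and 4 higher, at a median of -0.35, and 2 lay below every control (16.7%, beside 1.79%). That list shares DUSP1 with the immediate early genes and PER1 with the clock genes.

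Circadian clock genes were mixed in direction, with 9 of 15 measured members higher in sham and 6 lower. In this loop the activators CLOCK and ARNTL (also called BMAL1) drive the PER and CRY repressors and output factors such as TEF, while the NR1D receptors repress ARNTL and NFIL3. PER2 was at 7.40, 9.34 and 11.9 CPM in sham against 3.09, 3.93 and 5.26 CPM in control, with no overlap (log2 fold change 1.24 ± 0.335, 95% interval 0.53 to 1.95, adjusted p = 0.0036 by DESeq2 on the 9 libraries). That fit was chosen after seeing the data, and PER2 was called in 7 of its 9 leave-outs. The edgeR adjusted p of PER2 was 0.964. CRY2 was at 13.4, 13.8 and 9.72 CPM against 7.12, 7.48 and 9.49 CPM (0.62 ± 0.226), and TEF at 66.0, 51.6 and 46.0 CPM against 20.0, 28.0 and 44.6 CPM (0.84 ± 0.342). In the opposite direction, ARNTL was at 4.42, 3.45 and 4.82 CPM in sham against 3.24, 11.4 and 14.3 CPM in control (-1.22 ± 0.436), where only control 2 lay below the highest sham library. NFIL3 was at 3.40, 4.02 and 8.52 CPM against 8.46, 13.5 and 21.9 CPM (-1.47 ± 0.633).

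Of 15 measured clock genes, sham lay above every control for 4 (26.7%, beside 1.90% of all genes), namely PER2, CRY2, TEF and NR1D2, and 0 passed edgeR. NR1D2, the receptor REV-ERB beta, was at 311, 362 and 300.0 CPM in sham against 122, 205 and 265 CPM in control. CRY1, a repressor like CRY2, was not higher, at 8.85, 9.19 and 26.6 CPM in sham against 7.90, 15.5 and 41.1 CPM in control (log2 fold change -0.42 ± 0.478). CLOCK itself did not separate the groups, at 45.8, 47.0 and 41.7 CPM against 32.5, 44.9 and 59.3 CPM (-0.05 ± 0.246). PER1 overlapped as well, at 60.4, 59.6 and 66.7 CPM against 30.8, 49.1 and 78.9 CPM. Time of day moves these genes in most tissues, and its part in this pattern was not tested, since the labels give no sampling hour.

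**Figure D3:**
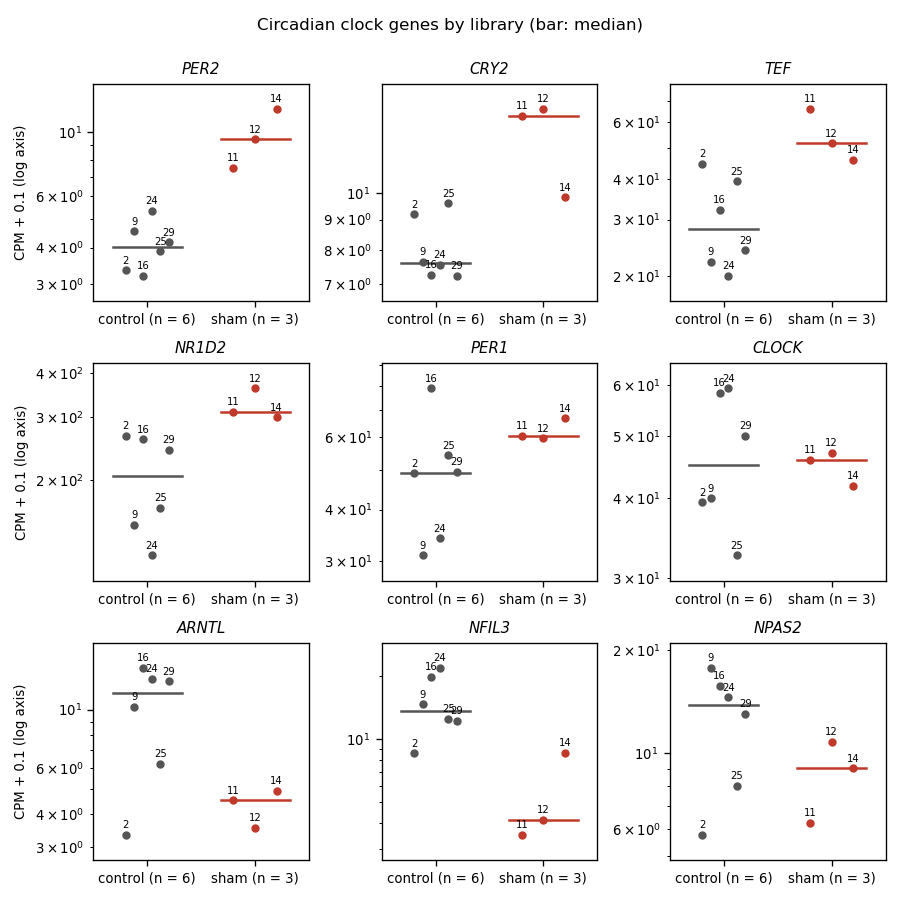
Levels of 9 circadian clock genes in the 6 control and 3 sham libraries, as CPM plus 0.1 on a log axis, each point 1 library with its animal number and each bar the group median. The sham points lie above all controls for PER2, CRY2, TEF and NR1D2, and at the low end of the control range for ARNTL.

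Stromal genes were the main group at higher levels in sham. LUM, the collagen-binding proteoglycan lumican, was at 3421, 4004 and 3094 CPM in sham against 1103, 1731 and 2351 CPM in control (log2 fold change 0.98 ± 0.351, 95% interval 0.23 to 1.72). OGN, the related proteoglycan osteoglycin, was at 1683, 2242 and 2424 CPM against 483, 967 and 1498 CPM (1.17 ± 0.419). Both lay above all controls. DCN, decorin, which limits collagen fibril width, was at 6919, 10302 and 10809 CPM against 2534, 5407 and 9428 CPM (0.71 ± 0.359) and overlapped through sham 11. DPT, dermatopontin, an extracellular protein that binds decorin, was at 449, 532 and 427 CPM against 103.98, 172 and 420.4 CPM (1.16 ± 0.433). COL14A1, a fibril-associated collagen, was at 1465, 1145 and 1462 CPM against 400.1, 565 and 968 CPM (1.07 ± 0.414). For DPT and COL14A1 the groups did not overlap.

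The main fibrillar collagens, of types I and III, overlapped between the groups. COL1A1, the alpha 1 chain of type I collagen, was at 6570.0 CPM in sham 11 but at 1672 and 1289 CPM in sham 12 and sham 14, against 812, 2832 and 6314 CPM in control (log2 fold change 0.03 ± 0.606). COL3A1, type III collagen, was at 20726, 7331 and 5375 CPM against 2922, 8621 and 18243 CPM (0.21 ± 0.554). The 95% interval for COL1A1, -1.26 to 1.32, leaves room for a 2-fold difference in either direction. That for COL3A1, -0.96 to 1.39, leaves room for a 2-fold increase and for a decrease of just under 2-fold. Sham 11 thus held the highest value of both collagens among the 9 libraries, while sham 12 and sham 14 lay within the control range.

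Of 11 measured small leucine-rich proteoglycans 10 were higher in sham, at a median of 0.63, and 2 lay above every control (18.2%, beside 1.90% of all genes). Fibroblast genes had 18 of 22 higher at a median of 0.43 with 3 above every control (13.6%). Elastic fibre genes had 11 of 12 higher at a median of 0.43 with 0 above every control. In each of these 3 lists 0 genes passed edgeR, 42.1% of all genes tested were higher in sham, and the median stayed above 0 in all fits run. The fibrillar and beaded collagen list had 11 of 13 higher and 2 above every control (15.4%), at a median of 0.16, which was -0.28 without sham 11. THBS4 and THBS3, thrombospondins of connective tissue, were at 47.0, 84.1 and 42.9 CPM and at 110.3, 76.3 and 82.8 CPM in sham, against at most 36.5 and 58.3 CPM in control. TIMP3, the matrix-bound metalloproteinase inhibitor, was at 651, 659 and 747 CPM against 338, 531 and 619 CPM (0.49 ± 0.218). Of 21 measured genes of the provisional wound matrix, which include fibronectin, tenascin and plasminogen activators, 8 were higher and 13 lower, at a median of -0.27.

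**Figure D4:**
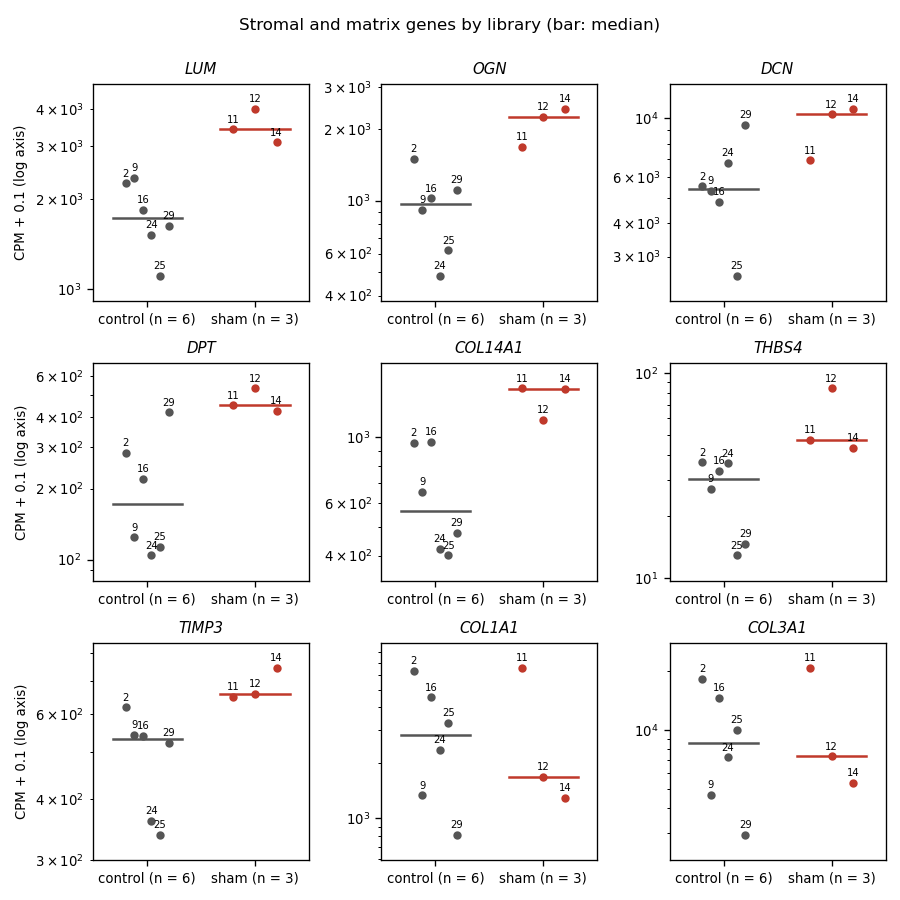
Levels of 9 stromal and matrix genes in the 6 control and 3 sham libraries, as CPM plus 0.1 on a log axis, each point 1 library with its animal number and each bar the group median. LUM, OGN, DPT, COL14A1, THBS4 and TIMP3 show every sham point above every control point, whereas DCN, COL1A1 and COL3A1 overlap.

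The genes with the smallest p among those higher in sham without overlap lay mostly outside these lists. VIT, vitrin, a matrix protein, was at 12.6, 14.7 and 27.3 CPM in sham against 1.17, 5.08 and 7.78 CPM in control (log2 fold change 1.93 ± 0.423, 95% interval 1.03 to 2.84). TENM2, teneurin 2, a transmembrane adhesion protein of neurons, had the smallest p of all genes in edgeR, at 0.838, 2.39 and 3.29 CPM against 0.0441, 0.172 and 0.512 CPM (2.84 ± 0.618), from 148 counts in sham and 26 in control. NGFR, the low-affinity neurotrophin receptor of nerve fibres, Schwann cells and some fibroblasts, was at 4.28, 5.65 and 8.56 CPM against 0.519, 1.20 and 3.35 CPM (1.85 ± 0.509). PRSS12, the secreted serine protease neurotrypsin, was at 21.6, 36.4 and 43.8 CPM against 6.38, 12.7 and 18.3 CPM (1.42 ± 0.347). All 4 genes separated the groups. The Schwann cell markers did not: SOX10, the transcription factor of the lineage, was at 3.91, 7.04 and 4.90 CPM in sham against 1.32, 3.03 and 5.44 CPM in control. The nerve list, which holds NGFR, had a median of 0.12 with 12 of 20 higher (60%, beside 42.1% of all genes). In it 1 member lay above every control (5%, beside 1.90% of all genes) and 1 below (5%, beside 1.79%).

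C1QTNF3, a secreted C1q-like protein, was at 5.77, 1.53 and 4.49 CPM in sham against 0.605, 0.987 and 1.22 CPM in control. ACACB, the acetyl-CoA carboxylase of the mitochondrial surface, was at 31.7, 25.7 and 31.9 CPM against 11.7, 14.8 and 20.9 CPM, and PPM1K, the phosphatase that activates branched-chain amino acid breakdown, at 106.6, 109.6 and 107.96 CPM against 51.4, 59.7 and 90.6 CPM. Their log2 fold changes were 1.91 ± 0.655, 0.93 ± 0.312 and 0.74 ± 0.222, with no overlap. The other genes of the 12 higher ones that the naming rule took were ASIC5, CCNT2, FMO5 and KANSL1, with log2 fold changes from 0.50 to 2.195, ASIC5 resting on 44 counts in sham and 8 in control.

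Among the 12 lower genes that the naming rule took, MRPL17, a protein of the mitochondrial ribosome, was at 49.4, 53.96 and 39.9 CPM in sham against 55.5, 174 and 246 CPM in control (log2 fold change -1.78 ± 0.513). COA4, an assembly factor of cytochrome oxidase, was at 12.1, 13.3 and 14.2 CPM against 16.2, 21.0 and 24.6 CPM (-0.62 ± 0.195). For both genes the sham and control values did not overlap. Of 20 measured nuclear genes of the respiratory chain 19 were lower, at a median of -0.34, or -0.17 without control 2, and 1 lay below every control, beside 57.9% of all genes lower and 1.79% below every control. The share of mitochondrially encoded transcripts differed within the control group itself, as given above, and its part in these values was not tested. GCLM, the modifier subunit of the enzyme that begins glutathione synthesis, was at 15.3, 14.9 and 14.3 CPM in sham against 17.1, 22.3 and 29.3 CPM in control (-0.63 ± 0.220). CHST2, a sulphotransferase that builds selectin ligands, was at 17.2, 18.0 and 18.4 CPM against 22.3, 32.5 and 42.7 CPM (-0.82 ± 0.211). KRT80, an epithelial keratin, was at 0.978, 1.72 and 1.15 CPM against 1.98, 3.15 and 5.30 CPM (-1.40 ± 0.386). Lower as well, with log2 fold changes of -0.79 to -0.54 and no overlap, were CDC34, ALG2 and TOPAZ1.

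No member of the smooth muscle, endothelial, pericyte, columnar epithelium or motile cilia lists lay outside the control range in all 3 sham libraries. Of 24 measured smooth muscle genes 13 were lower and 11 higher, at a median of -0.10, which was 0.22 without control 2. MYH11, given above, had a log2 fold change of -0.04 ± 0.572. P2RX1, a purinergic cation channel found in smooth muscle, was at 9.17, 3.78 and 4.28 CPM in sham against 3.00, 21.9 and 35.5 CPM in control (-1.77 ± 0.730). Endothelial genes had a median of 0.18 with 13 of 17 higher, and PECAM1, the endothelial junction protein, stood at 159, 150.2 and 147 CPM against 73.8, 135 and 244 CPM (95% interval of the log2 fold change -0.92 to 0.96). Of 12 measured genes of pericytes and vascular mural cells 10 were higher, at a median of 0.36 that ran from 0.28 to 0.50 when 1 library was left out. Columnar epithelium genes had a median of -0.43 that was 0.02 without control 9 and -0.67 without control 2. Genes of motile cilia were lower for all 16 measured members, at a median of -2.02, but for 15 of them control 16 and control 24 were the highest of the 9 libraries, DRC1 being the exception. SPAG17, a protein of the ciliary axoneme, was at 13.9 and 14.7 CPM in those libraries and at 0 to 0.326 CPM in the other 7.

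**Figure D5:**
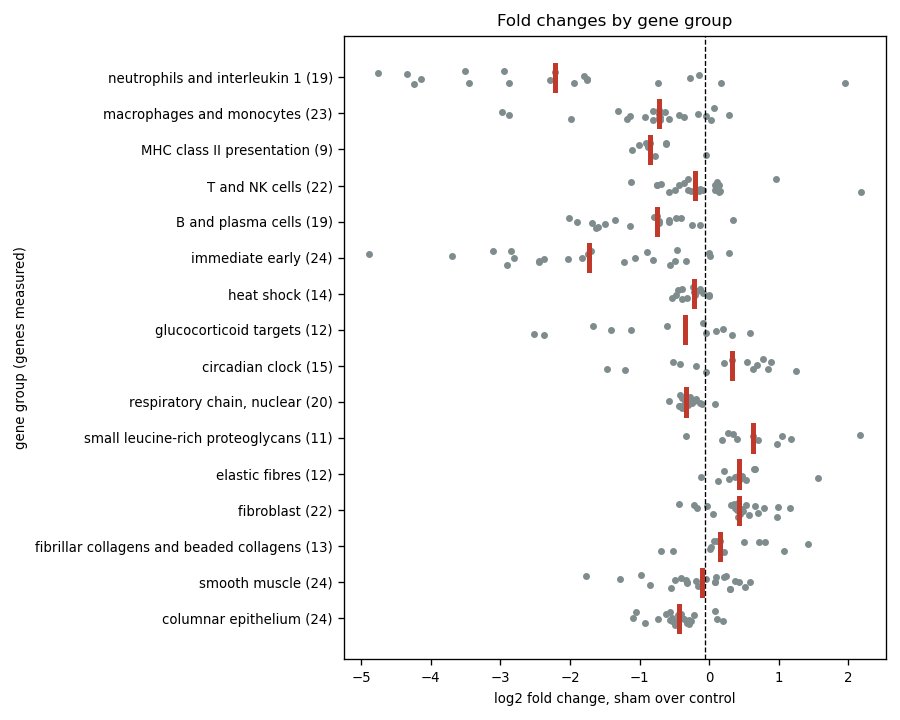
Log2 fold change of sham over control for the measured members of 16 gene groups, each point 1 gene, each thick bar the median of the group and the dashed line the median of all 10942 genes tested. The neutrophil group has a median of -2.22 and the immediate early group of -1.72, while the small leucine-rich proteoglycans have a median of 0.63.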

How the data were processed

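RNA of 16 rabbit vaginal samples was sequenced from TruSeq stranded libraries, per the labels' protocols. The authors deposited 1 table of raw counts per named gene, and the submitters' processing notes name FastQC, HISAT2 2.2.1 and featureCounts. The genome build, annotation and strand setting of the counting are not given in the sources used here, so no coordinates are printed, and overlapping or near-identical genes are uncertain. The row of unnamed genes, 22.9 to 27.0% of counts in the 9 sham and control libraries, was left out of library sizes and tests.

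Genes were filtered with filterByExpr and scaled by TMM. Group means over all 16 libraries, which share 1 estimate of spread, were fitted with the edgeR 4.0.16 quasi-likelihood test in R 4.3.3, and p was adjusted by Benjamini-Hochberg with a threshold of 0.05. Fold changes use a prior count of 2. The fit was tested on simulated counts. DESeq2 1.42.0 and limma 3.58.1 voom, other scalings and filters, subsets of libraries and leaving out each library were alternatives. The 9 sham and control libraries carry 9 different animal numbers. Control 9 and PLATE 9 carry the same number, the labels do not say whether they are 1 animal, and the fit over 16 libraries treats them as independent.

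Named genes were the 12 higher and 12 lower with the smallest p among those whose groups did not overlap, up to 3 per gene list, cell type markers, genes called by an alternative, and list members described by role. The comparison, its members and the 44 lists were chosen with earlier results of these data known. Lists are described by counts and medians, with no test of the list. Some genes are not reported here.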

Additional observations from a re-analysis of the deposited data

Results flagged for a closer look

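Within the 6 control libraries, 7 of the measures examined (6.54%) had 1 library far from the others by Dixon's criterion. Among independent measures the criterion would flag about 1 in 20 by chance. The measures here are not independent, since single genes and gene lists were both examined, and chance was not tested. Control 2 accounted for 4 of the 7. It had 10797 genes with a count, against 11427 to 11629 in the other controls. Its EPCAM level was 1.71 CPM, against 52.8 to 252 CPM. Its columnar epithelium genes had a mean log2 CPM of 0.026, against 4.15 to 6.52. Its FKBP5 level was 1.80 CPM, against 9.80 to 20.8 CPM. Control 9 had a mean log2 CPM of 4.63 over the B and plasma cell genes, against 0.94 to 2.28. Control 24 had 251 CPM of CD163, against 9.80 to 30.2 CPM. Control 16 had 109.1 CPM of SGK1, against 59.8 to 74.8 CPM. The groups of 3 sham libraries are too small for this criterion.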

How the results depend on the processing

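No gene was called between sham and control by edgeR, DESeq2 or limma voom under any alternative fixed at the start, and the 28 DESeq2 calls came from the fit to the 9 libraries that was chosen after seeing the data. Leaving out 1 library at a time moved that count from 9 to 59, and leaving out control 2 and control 9 together made it 70, with 21 of the 28 shared. Genes whose sham and control values did not overlap numbered 912 without control 2 and control 9, against 404 with them, where fewer controls make overlap rarer by construction. Of 1551 alternative values for 82 genes, 37 had the opposite sign, all for genes near 0 or resting on 1 library, and the cause was not tested. Leaving out 1 library moved the log2 fold change of COL1A1 between -1.05 and 0.41, of COL3A1 between -0.58 and 0.55, of MMP9 between -4.10 and 2.56, of MYH11 between -0.25 and 0.42, of EPCAM between -0.55 and 0.039, of CYBB between -0.81 and 0.045, of KLF6 between -0.12 and 0.20, of PECAM1 between -0.12 and 0.22 of DRC1 between -0.29 and 0.065 and of CLOCK between -0.14 and 0.027. Voom with sample weights gave COL1A1 -0.14, CYBB 0.046, EPCAM 0.11, KLF6 -0.12 and MYH11 0.25, and voom with group weights gave COL1A1 -0.083, EPCAM 0.50, MMP9 -1.33 and MYH11 0.25. Without control 2 and control 9, the log2 fold change of KLF6 was -0.078 and that of MYH11 0.18 when the grafts were kept, and -0.075 and 0.18 when they were not. No paired analysis was possible because the sham and control animals share no number. The values of TENM2, ASIC5 and IFNG rest on few counts, and TCN1 had few counts in sham only.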
